A study of Arabidopsis thaliana with 12 samples.

Results

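Estradiol-induced roots harvested after 24 h of treatment were compared with induced roots harvested after 8 h, in 3 RNA sequencing libraries at each time. These 6 libraries were chosen by their titles from a series of 12 samples, and the remaining 6 were mock libraries from the same 2 times. All plants were Arabidopsis thaliana of the genotype 35S:XVE>>PLT5-TagRFP, in which the 35S promoter, active in nearly all cells, drives the estradiol receptor fusion XVE, and XVE with estradiol switches on a fusion of PLT5 and the red fluorescent TagRFP. The groups were induced roots at 24 h (estradiol, n = 3), induced roots at 8 h (estradiol, n = 3), mock roots at 24 h (DMSO, the solvent, n = 3) and mock roots at 8 h (DMSO, n = 3). Each library pooled root pieces of 1.5 cm from below the hypocotyl, cut from 15 plants and freed of visible lateral roots. The 35S promoter is not restricted to the cambium or to any other root tissue, and mock plants carried the construct as well.

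The mature root that was sampled thickens from the vascular cambium, a ring of stem cells that gives xylem to the inside and phloem to the outside. The cork cambium around it makes suberised cork. PLT5 belongs to the PLETHORA and AINTEGUMENTA-like (PLT/AIL) family of AP2 transcription factors, whose members maintain dividing, undifferentiated cells in root and shoot meristems and act in embryo development. Since PLT5 was already high at 8 h, the comparison of the induced times shows which genes moved further while the factor stayed on, and the mock libraries show how far the same genes moved between the harvests without induction.

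PLT5 (AT5G57390, chromosome 5, 23252989 to 23256703, minus strand, TAIR10) was at 2929, 2769 and 2688 CPM, counts scaled to library size, in the 3 induced libraries at 24 h, against 2385, 2632 and 2383 CPM in the 3 induced libraries at 8 h. The mock libraries held 13.4, 17.2 and 11.8 CPM at 24 h and 12.6, 12.3 and 15 CPM at 8 h, so all 12 libraries carried the level that their labels imply. The change between the induced times was not called (log2 fold change 0.18, SE 0.108, adjusted p = 0.174), although the 3 higher values were all at 24 h and a fit on the 6 induced libraries alone called it (adjusted p = 0.0331). Reads of the native gene and of the transgene are not separated in these values. Library totals were 39071031 to 39719037 counts in induced roots at 24 h, 37560782 to 40403374 in induced roots at 8 h and 34958324 to 41447647 over all 12 libraries. Plastid genes took 5.897% to 6.283% of counts in induced roots at 24 h, 6.633% to 6.756% in induced roots at 8 h and between 6.129% and 6.608% in mock roots, and the part of this shift in any result was not tested.

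Throughout, "rose" and "fell" describe genes whose level differed between the times at an adjusted p under 0.05 in the quasi-likelihood F test of edgeR. Fold changes are log2 of 24 h over 8 h. Of 21439 genes tested in induced roots, 5975 rose (27.9%) and 6466 fell (30.2%), together 58.0%. Large changes were mostly downward: 2774 genes fell at least 2-fold (12.9%) and 799 rose at least 2-fold (3.73%). The 5th percentile of the log2 fold changes was -2.06 and the 95th percentile 0.91. The CPM values of the 3 libraries at 24 h did not overlap those of the 3 at 8 h for 65.5% of genes.

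Mock roots changed little between the same times. Of the same genes, 105 rose (0.490%) and 37 fell (0.173%) in mock roots, 142 or 0.662% in all, and the middle 90% of log2 fold changes lay between -0.32 and 0.33. At an unadjusted p under 0.05 there were 2032 genes. Of the 142 genes, 117 moved the same way in induced roots, 15 moved the opposite way and 10 were not called there. The interaction, the difference between the induced and the mock change, was called for 8740 genes (40.8%), higher for 3905 (18.2%) and lower for 4835 (22.6%), and 8531 of the 12441 genes that changed in induced roots had an interaction called in the same direction. The mock count rests on few libraries: it was between 1 and 20 without any of mock 8 h replicates 1 to 3 or mock 24 h replicates 1 and 3, and 79 without induced 8 h replicate 1.

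**Figure D1:**
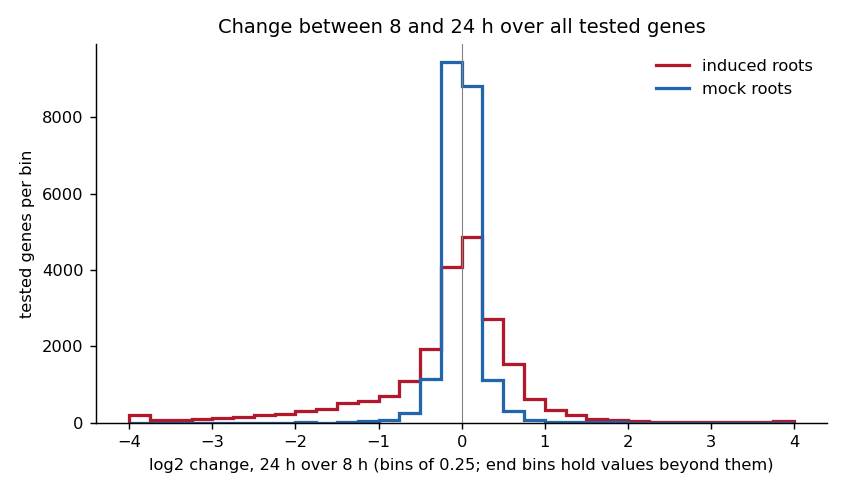
Number of tested genes (vertical axis) in bins of log2 change between 24 h and 8 h (horizontal axis, bins of 0.25), for induced and for mock roots. Mock roots are gathered within a narrow band around 0, and induced roots spread to both sides with a longer tail of falls, in which 2774 genes fell at least 2-fold.

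Genes were grouped in 36 lists by their known roles. Over all tested genes 27.9% rose and 30.2% fell, and the counts of each list are to be read beside these shares. The sampled tissue is a mixture, so in every group below fewer cells of a type and less RNA per cell cannot be told apart.

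**Figure D2:**
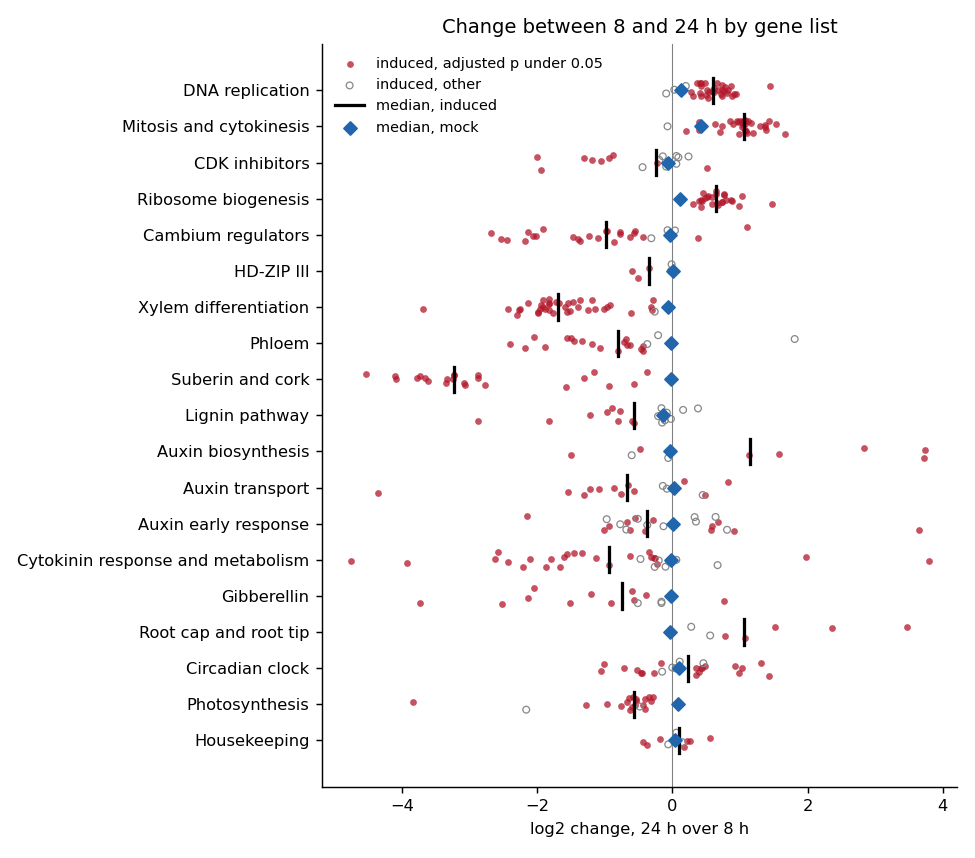
Log2 change between 24 h and 8 h of each tested gene in induced roots (circles, filled where the adjusted p was under 0.05) for 19 of the gene lists, with the list's median in induced roots (black bar) and in mock roots (blue diamond). Replication, mitosis and ribosome genes lie to the right, suberin, xylem, cambium and cytokinin genes to the left, and the mock medians lie near 0 except for mitosis at 0.43.

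The PLT/AIL genes parted in opposite directions. PLT1 and BBM, which mark the root stem cell niche and the embryo, rose strongly from near absence, while ANT and PLT7 fell. PLT1 (AT3G20840, chromosome 3, 7300444 to 7303693, plus strand) was at 4.48, 4.03 and 3.49 CPM in induced roots at 24 h, against 0.365, 0.44 and 0.515 CPM at 8 h (log2 fold change 3.18, SE 0.301, adjusted p = 2.28e-06), and averaged 0.357 ± 0.139 CPM in mock roots at 24 h and 0.484 ± 0.212 CPM in mock roots at 8 h. All its libraries at 24 h stood apart from the other 9. BBM (AT5G17430, chromosome 5, 5742393 to 5745748, minus strand), known from embryos and root meristems, was at 2.76, 2.36 and 2.02 CPM at 24 h, against 0.122, 0.259 and 0.412 CPM at 8 h (log2 fold change 3.17, SE 0.411, adjusted p = 3.05e-05). ANT (AT4G37750, chromosome 4, 17739514 to 17742407, plus strand), a growth regulator of organs and of the cambium, was at 23.2, 23.6 and 21.1 CPM at 24 h and 54.5, 45.8 and 62.1 CPM at 8 h in induced roots (log2 fold change -1.26, SE 0.0987, adjusted p = 4.96e-07). Mock roots held 152, 158 and 161 CPM of ANT at 24 h and 153, 135 and 158 CPM at 8 h, so the induced libraries at 8 h lay below the mock range and those at 24 h lower again. PLT7 (AT5G65510) fell by 0.98 (SE 0.11, adjusted p = 9.59e-06), with 12.7, 10.03 and 12.6 CPM at 24 h against 22.9, 23.7 and 23 CPM at 8 h, and averaged 22.7 ± 0.796 CPM in mock roots at 24 h and 22.1 ± 3.44 CPM in mock roots at 8 h.

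PLT2 (AT1G51190) was at 0.643, 0.836 and 1.06 CPM at 24 h against 0.244, 0.31 and 0.309 CPM at 8 h (log2 fold change 1.55, SE 0.547, adjusted p = 0.0283), and its call was lost without 5 of the 6 induced libraries, each in turn, with adjusted p-values up to 0.0851. PLT3 (AT5G10510) fell by 0.30 (SE 0.105, adjusted p = 0.0252) with overlapping libraries, and that call was lost with total library size, in the fit on 6 libraries and without induced 8 h replicate 1 or 3 or induced 24 h replicate 1, with adjusted p-values of 0.06 to 0.117. The interaction was called for PLT1, BBM, ANT and PLT7. The remaining member, AIL1, had 0 counts in all 12 libraries and was not tested.

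DNA replication genes rose almost as a block. Of 34 such genes, covering the licensing and origin complexes, polymerases, nucleotide supply and E2F factors, 31 rose and none fell, beside 27.9% and 30.2% over all tested genes. Their median log2 fold change was 0.60, the median over all genes being -0.0009. RNR2A (-0.09), E2FB (0.03) and PSF3 (0.20) were not called. TSO2 (AT3G27060, chromosome 3, 9979841 to 9981620, minus strand), the small subunit of ribonucleotide reductase that supplies DNA precursors, was at 308, 280.0 and 257 CPM in induced roots at 24 h, against 98.3, 99 and 114 CPM at 8 h (log2 fold change 1.44, SE 0.0977, adjusted p = 1.48e-07). The lowest library at 24 h held more than 2 times the highest at 8 h. ORC6 (AT1G26840) and ORC1B (AT4G12620), subunits of the complex that marks replication origins, rose by 0.94 (SE 0.135, adjusted p = 7.17e-05) and 0.88 (SE 0.089, adjusted p = 3.95e-06). DEL1 (AT3G48160), an atypical E2F that holds back endoreduplication, was at 20.8, 20.17 and 17.3 CPM at 24 h against 10.3, 10.08 and 10.6 CPM at 8 h (log2 fold change 0.91, SE 0.111, adjusted p = 1.9e-05). In mock roots none of the 34 was called and their median was 0.12. Of the 31 that rose, 24 had an interaction called higher.

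Mitosis and cytokinesis genes moved further than replication genes. Of 34 genes, 33 rose, 21 of them at least 2-fold (3.73% over all genes), and the median was 1.06. CYCB1;3 (AT3G11520, chromosome 3, 3625286 to 3627273, minus strand), a B-type cyclin of the entry into mitosis, was at 56.2, 56.6 and 47.4 CPM in induced roots at 24 h, against 16.3, 16.8 and 17.4 CPM at 8 h (log2 fold change 1.67, SE 0.0859, adjusted p = 1.76e-08). In mock roots it was at 27.5, 22.3 and 25.5 CPM at 24 h and 19, 18 and 18 CPM at 8 h, so the induced libraries at 8 h lay slightly below the mock libraries of that time, and those at 24 h lay above all others. CYCB2;3 (AT1G20610), another B-type cyclin, was at 50.1, 48.4 and 39.7 CPM at 24 h against 15.4, 16.1 and 16.4 CPM at 8 h (log2 fold change 1.53, SE 0.0926, adjusted p = 5.92e-08). CDKB2;1 (AT1G76540), a plant-specific kinase of the passage from G2 to mitosis, was at 107, 105 and 87 CPM at 24 h against 35.4, 38 and 37.7 CPM at 8 h (log2 fold change 1.43, SE 0.091, adjusted p = 8.9e-08). CYCA2;1 (AT5G25380) rose by 1.39 (SE 0.162, adjusted p = 1.27e-05). For each of these 4 genes induced 24 h replicate 3 was the lowest of its group and still lay well above every library at 8 h. CYCA2;3, a cyclin linked to the onset of endoreduplication, was not called (-0.07, adjusted p = 0.505).

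This list also moved in mock roots, where 13 of 34 rose (0.490% over all genes) with a median of 0.43. The summed level of the list was 1549 to 1874 CPM in induced roots at 24 h, 817 to 881 CPM in induced roots at 8 h, 1098 to 1275 CPM in mock roots at 24 h and 848 to 929 CPM in mock roots at 8 h. The mock groups did not overlap either. The interaction was called higher for 27 of the 33 genes that rose, with a difference of 1.21 (SE 0.121, adjusted p = 9.59e-06) for CYCB1;3 and 0.87 (SE 0.127, adjusted p = 0.000203) for CDKB2;1. The mock count of 13 was 0 or 1 without any of mock 8 h replicates 1 to 3 or mock 24 h replicates 1 and 3, between 5 and 8 without induced 8 h replicate 1 or 2 or induced 24 h replicate 2, 24 with DESeq2 and 0 in a fit on the 6 mock libraries alone.

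**Figure D3:**
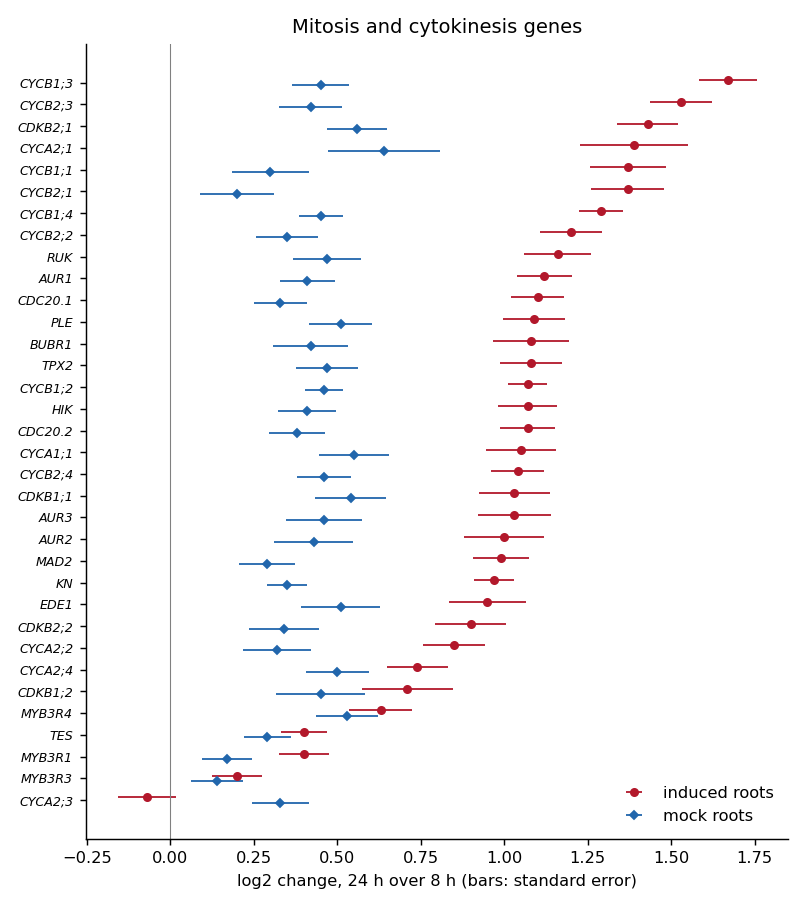
Log2 change between 24 h and 8 h of the 34 mitosis and cytokinesis genes in induced roots (red circles) and in mock roots (blue diamonds), with standard errors from the fit on 12 libraries. The change in induced roots is the larger for every gene except CYCA2;3, and that in mock roots is above 0 for all of them.

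Cell cycle inhibitors and D-type cyclins gave a mixed picture, beside the 27.9% of all genes that rose and the 30.2% that fell. Of 17 CDK inhibitors, 8 fell and 1, KRP3, rose (0.51, SE 0.138, adjusted p = 0.00667). SMR3 (AT5G02420), SIM (AT5G04470) and SMR1 (AT3G10525), of the SIAMESE-related family that blocks CDKs and promotes endoreduplication, were among those that fell. SMR3 was at 1.72, 1.62 and 2.77 CPM in induced roots at 24 h, against 8.06, 8.53 and 7.86 CPM at 8 h (log2 fold change -2.0, SE 0.172, adjusted p = 1.02e-06), and averaged 17.2 ± 1.86 CPM in mock roots at 24 h and 19.4 ± 2.36 CPM in mock roots at 8 h. SIM was at 0.238, 0.358 and 0.409 CPM at 24 h against 1.53, 1.16 and 1.19 CPM at 8 h (log2 fold change -1.94, SE 0.2, adjusted p = 4.6e-06). SMR1 fell by 1.19 (SE 0.201, adjusted p = 0.000265). KRP7 (AT1G49620), of the Kip-related family, fell by 1.06 (SE 0.16, adjusted p = 0.000105). For SMR3, SIM, SMR1 and KRP7 the induced libraries at 24 h were also below every mock library. Of 9 tested D-type cyclins, which link growth signals to the cell cycle, 5 rose and 2 fell, all less than 2-fold. CYCD3;1 (AT4G34160) was at 133, 128 and 118 CPM at 24 h against 186, 179.7 and 184 CPM at 8 h (log2 fold change -0.54, SE 0.0655, adjusted p = 1.83e-05), and CYCD6;1 (AT4G03270), known from formative divisions downstream of SHORT-ROOT, fell by 0.63 (SE 0.15, adjusted p = 0.00311). CYCD4;2 (AT5G10440) rose by 0.49 (SE 0.187, adjusted p = 0.039), CYCD3;2 (AT5G67260) by 0.44 (SE 0.0653, adjusted p = 8.86e-05) and CYCD2;1 by 0.41 (SE 0.0663, adjusted p = 0.000187). The call of CYCD4;2 was lost under 10 of the alternatives (adjusted p up to 0.14). The count of 5 rises was 2 with DESeq2, 3 with no filter on low counts, and 2 or 3 without mock 8 h replicate 2, any induced library at 8 h, or induced 24 h replicate 1 or 2. CYCD7;1 had 0 counts and was not tested.

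Ribosome biogenesis genes all rose. Every one of 25 genes for nucleolar and pre-ribosomal proteins had an adjusted p under 0.05, with changes of 0.31 to 1.48, a median of 0.65 and no overlap between the times. Over all tested genes 27.9% rose, and 65.5% had no overlap in either direction. The interaction was called higher for all 25, and in mock roots none was called (median 0.11). FIB2 (AT4G25630, chromosome 4, 13074090 to 13076432, plus strand), a fibrillarin that methylates ribosomal RNA, was at 70.4, 63.8 and 62.3 CPM in induced roots at 24 h, against 22, 23.3 and 25.2 CPM at 8 h (log2 fold change 1.48, SE 0.137, adjusted p = 1.88e-06). NUC1 (AT1G48920, chromosome 1, 18098081 to 18101732, plus strand), the nucleolin of the nucleolus, was at 310.2, 309 and 287 CPM at 24 h against 148, 147 and 162 CPM at 8 h (log2 fold change 0.99, SE 0.0808, adjusted p = 6.71e-07), and in mock roots at 158, 164 and 198 CPM at 24 h and 156, 145 and 161 CPM at 8 h. The induced libraries at 8 h thus lay within the mock range for NUC1 and those at 24 h far above it. NOP56 (AT1G56110), a core protein of the same methylating particles, rose by 0.88 (SE 0.101, adjusted p = 1.1e-05) and BRX1-2 (AT1G52930), an assembly factor of the large subunit, by 1.03 (SE 0.089, adjusted p = 1.1e-06). FIB1 and FIB2, and BRX1-1 and BRX1-2, are close copies, so the split of reads within each pair is uncertain.

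The promoters of these lists were searched for the motifs that are known to bind the factors of each program. Windows of 250 bases before the annotated start of 27437 protein-coding nuclear genes were read on both strands from the RefSeq genome TAIR10.1, in which 99.95% of matched loci have the coordinates of the deposited files. The E2F site TTTCCCGC was in 26.5% of the replication promoters and 0.620% of all promoters, and TTTGGCGC was in 11.8% and 0.361%. Either was in 11 of 34 replication promoters. CNAACGG, the core of the mitosis-specific activator element bound by MYB3R factors, was in 10 of 34 mitosis promoters (29.4%) and in 4.50% of all. TGGGCC, known from ribosomal protein promoters and bound by TCP factors, was in 12 of 25 ribosome biogenesis promoters (48.0%) and in 13.7% of all. The telo box AAACCCTA was in 3 of 25 (12.0%) and in 4.49% of all. A match describes the letters in these windows and is not evidence of binding.

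The windows of the 2 members per list with the largest rise and a match are shown in the order in which they are transcribed, with the matched letters on either strand in capitals and windows that overlap another gene passed over. ORC1A (AT4G14700, chr4:8421923-8422172, plus strand), a subunit of the origin complex, holds TTTCCCGC close to its start, and MCM3 (AT5G46280, chr5:18773707-18773956, minus strand), a subunit of the replicative helicase, holds TTTGGCGC in reverse. CYCB1;3 (chr3:3627274-3627523, minus strand) holds 2 mitotic elements and CYCB2;3 (chr1:7137829-7138078, minus strand) holds 1. FIB1 (chr5:21293897-21294146, plus strand) holds the telo box and TGGGCC on both strands, and TOZ (chr5:5509362-5509611, minus strand), a nucleolar protein of rRNA processing, holds TGGGCC.
ORC1A: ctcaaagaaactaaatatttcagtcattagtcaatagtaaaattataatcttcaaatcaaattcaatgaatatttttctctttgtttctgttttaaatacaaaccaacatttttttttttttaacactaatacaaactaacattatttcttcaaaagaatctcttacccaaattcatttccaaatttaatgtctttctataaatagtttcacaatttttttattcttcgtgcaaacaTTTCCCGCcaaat
MCM3: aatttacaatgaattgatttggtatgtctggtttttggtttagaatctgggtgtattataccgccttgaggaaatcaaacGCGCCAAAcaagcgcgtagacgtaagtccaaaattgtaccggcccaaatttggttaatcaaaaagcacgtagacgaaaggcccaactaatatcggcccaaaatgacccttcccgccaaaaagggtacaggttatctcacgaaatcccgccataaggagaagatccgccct
CYCB1;3: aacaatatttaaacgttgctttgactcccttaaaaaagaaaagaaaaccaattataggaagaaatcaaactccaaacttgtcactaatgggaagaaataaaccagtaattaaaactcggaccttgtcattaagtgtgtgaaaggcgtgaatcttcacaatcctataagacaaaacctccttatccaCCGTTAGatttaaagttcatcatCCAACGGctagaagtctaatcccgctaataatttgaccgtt
CYCB2;3: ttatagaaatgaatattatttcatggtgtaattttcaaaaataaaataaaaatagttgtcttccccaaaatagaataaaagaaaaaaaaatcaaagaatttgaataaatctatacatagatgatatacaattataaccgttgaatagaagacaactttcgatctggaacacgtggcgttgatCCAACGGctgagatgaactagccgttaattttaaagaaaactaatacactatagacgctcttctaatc
FIB1: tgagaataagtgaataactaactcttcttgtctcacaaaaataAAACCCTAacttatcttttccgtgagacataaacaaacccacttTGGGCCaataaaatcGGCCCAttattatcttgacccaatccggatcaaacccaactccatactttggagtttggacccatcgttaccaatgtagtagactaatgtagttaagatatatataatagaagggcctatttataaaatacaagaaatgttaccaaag
TOZ: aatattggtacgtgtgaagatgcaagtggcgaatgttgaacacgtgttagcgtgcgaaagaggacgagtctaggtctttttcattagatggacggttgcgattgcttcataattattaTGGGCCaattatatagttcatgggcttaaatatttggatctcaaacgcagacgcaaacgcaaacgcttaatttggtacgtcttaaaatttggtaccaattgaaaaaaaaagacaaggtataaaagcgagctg
All 6 genes rose in induced roots. ORC1A was at 4.05, 3.84 and 3.51 CPM at 24 h against 1.46, 2.66 and 2.63 CPM at 8 h (log2 fold change 0.76, SE 0.223, adjusted p = 0.011), and MCM3 was at 126, 127 and 115 CPM against 73.5, 81.9 and 77.8 CPM (log2 fold change 0.66, SE 0.0839, adjusted p = 2.65e-05). FIB1 was at 223, 219.8 and 216 CPM at 24 h against 122, 132 and 133 CPM at 8 h (log2 fold change 0.77, SE 0.0594, adjusted p = 4.26e-07), and TOZ rose by 0.66 (SE 0.0717, adjusted p = 6.72e-06).

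**Figure D4:**
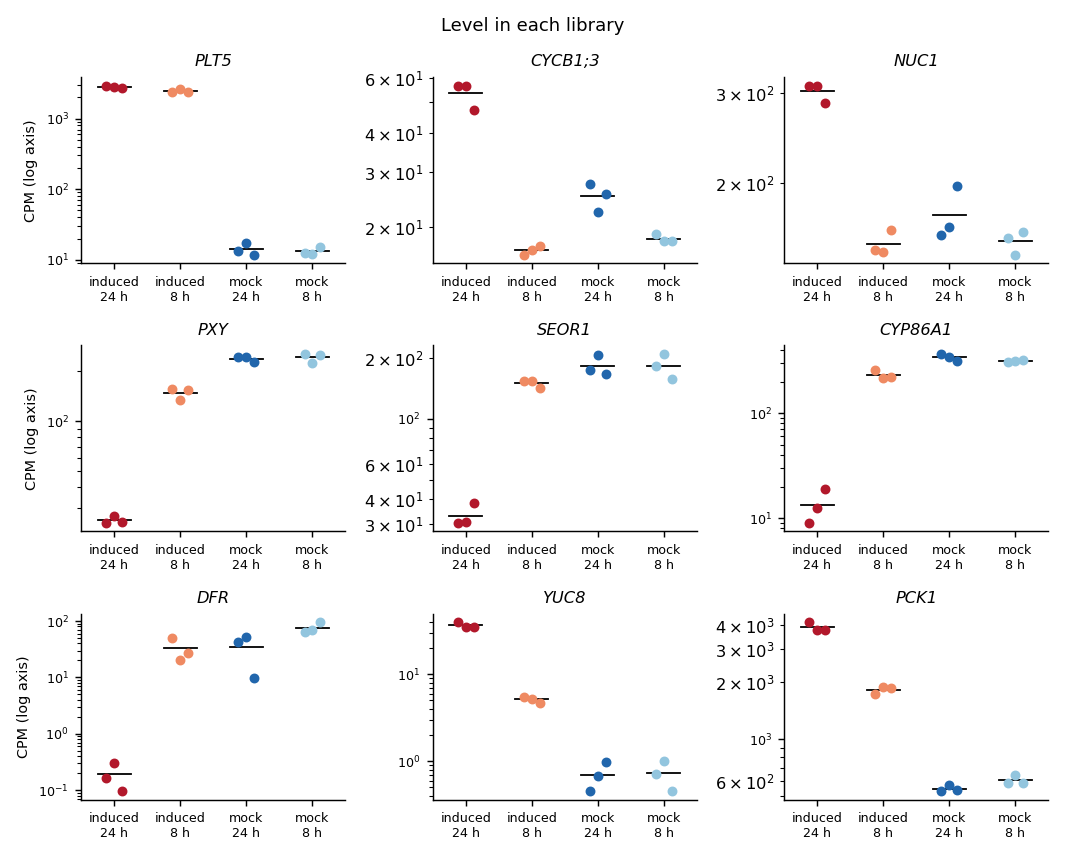
CPM on a log axis of 9 genes in each of the 12 libraries (points) with the mean of each group of 3 (bar); the groups are induced 24 h, induced 8 h, mock 24 h and mock 8 h from left to right. PLT5 is at a similar level at both induced times, CYCB1;3, NUC1, YUC8 and PCK1 are highest at 24 h of induction, and PXY, SEOR1, CYP86A1 and DFR are lowest there.

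Cambium regulators fell. Of 27 genes, 22 fell, 13 of them at least 2-fold (12.9% over all genes), 2 rose, and the median was -0.98, while the mock median was -0.04 with 1 gene called, KNAT1, whose mock change was -0.32 (adjusted p = 0.0435). PXY (AT5G61480, chromosome 5, 24724337 to 24728244, minus strand), the receptor kinase that cambium cells use to perceive the TDIF peptide, was at 24.4, 26.9 and 24.9 CPM in induced roots at 24 h, against 156, 133 and 153 CPM at 8 h (log2 fold change -2.54, SE 0.0753, adjusted p = 7.69e-10), and averaged 237 ± 9.94 CPM in mock roots at 24 h and 243 ± 15.7 CPM in mock roots at 8 h. Every mock library was above every induced library at 8 h, and each of those above every induced library at 24 h. The peptide genes CLE41, CLE44 and CLE42 fell with the receptor, by 0.86 (SE 0.0763, adjusted p = 1.31e-06), 1.40 (SE 0.121, adjusted p = 1.03e-06) and 0.98 (SE 0.193, adjusted p = 0.000845). WOX4 (AT1G46480, chromosome 1, 17236524 to 17238185, minus strand), the homeobox target of PXY that promotes cambial division, was at 3.1, 2.79 and 4.16 CPM at 24 h, against 15.1, 13.4 and 15.8 CPM at 8 h (log2 fold change -2.14, SE 0.133, adjusted p = 7.45e-08), and averaged 66.4 ± 5.42 CPM in mock roots at 24 h and 64.6 ± 6.05 CPM in mock roots at 8 h. WOX14 (AT1G20700), a relative that acts with it, fell by 2.18 (SE 0.141, adjusted p = 1.01e-07).

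LBD and DOF factors of the cambium followed. LBD3 (AT1G16530), a cytokinin target that starts secondary growth, was at 1.19, 0.836 and 1.64 CPM at 24 h against 8.31, 5.17 and 10.03 CPM at 8 h (log2 fold change -2.68, SE 0.267, adjusted p = 3.43e-06), and averaged 42.6 ± 4.75 CPM in mock roots at 24 h and 44.6 ± 5.7 CPM in mock roots at 8 h. LBD4 and LBD1 fell by 1.91 (SE 0.105, adjusted p = 2.59e-08) and 2.02 (SE 0.262, adjusted p = 3.13e-05), and LBD11 by 0.97 (SE 0.134, adjusted p = 5.29e-05). PEAR1 and TMO6, mobile DOF factors that promote radial growth, fell by 2.06 (SE 0.133, adjusted p = 1e-07) and 1.47 (SE 0.0783, adjusted p = 2.08e-08). The receptor kinases PXL1 and RUL1 fell by 2.45 (SE 0.229, adjusted p = 2.05e-06) and 1.37 (SE 0.0958, adjusted p = 1.89e-07), and the trihelix gene PTL by 1.23 (SE 0.15, adjusted p = 1.81e-05). PEAR2, KNAT1, MOL1, SMXL4, SMXL5, HAM4 and ARF5 fell by between 0.44 and 1.1.

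The 2 that rose were HAM1 and SMXL3. HAM1 (AT2G45160, chromosome 2, 18617862 to 18620451, minus strand), a HAIRY MERISTEM factor that keeps stem cells undifferentiated, was at 78.7, 76.7 and 67.4 CPM in induced roots at 24 h, against 34.9, 36.5 and 32 CPM at 8 h (log2 fold change 1.11, SE 0.0697, adjusted p = 8.23e-08), and averaged 23.6 ± 0.631 CPM in mock roots at 24 h and 24.2 ± 1.27 CPM in mock roots at 8 h. SMXL3 (AT3G52490), a phloem and cambium regulator, was at 109, 108 and 93 CPM at 24 h against 76, 87.8 and 73.9 CPM at 8 h (log2 fold change 0.38, SE 0.0977, adjusted p = 0.0049), and averaged 25.3 ± 0.774 CPM in mock roots at 24 h and 25 ± 3.57 CPM in mock roots at 8 h. Both genes were thus above the mock range at 8 h and higher again at 24 h, and the interaction was called for HAM1 and not for SMXL3. PXL2 (-0.31), HAM2 (0.04) and HAM3 (-0.07) did not pass the test. Of the 5 HD-ZIP III factors, which pattern the vascular tissue, ATHB8 fell by 0.60 (SE 0.0651, adjusted p = 7.01e-06), CNA by 0.50 (SE 0.0612, adjusted p = 2.03e-05) and PHB by 0.35 (SE 0.0707, adjusted p = 0.00105), each less than 2-fold. REV and PHV were not called (log2 fold changes -0.01 and -0.02).

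Xylem genes fell as a group between 8 h and 24 h. Of 38 tested genes, 37 fell (30.2% over all genes), 31 of them at least 2-fold (12.9% over all genes). The median was -1.69, and none was called in mock roots (median -0.06). Summed over the list, induced roots held 591 to 672 CPM at 24 h and 1277 to 1637 CPM at 8 h, and mock roots held 1297 to 1787 CPM at 24 h and 1315 to 1739 CPM at 8 h. The sums at 8 h of induction thus overlapped the mock range, and those at 24 h were below every other library. IRX9 (AT2G37090, chromosome 2, 15587394 to 15589369, minus strand), a xylan synthesis enzyme of secondary walls, was at 6.65, 3.41 and 5.65 CPM in induced roots at 24 h, against 27.8, 27.7 and 20.16 CPM at 8 h (log2 fold change -2.27, SE 0.233, adjusted p = 4.49e-06), and averaged 29.5 ± 6.29 CPM in mock roots at 24 h and 30.1 ± 4.79 CPM in mock roots at 8 h. SND2 (AT4G28500), a NAC factor of the secondary wall, fell by 2.29 (SE 0.276, adjusted p = 1.7e-05), and XND1 (AT5G64530), a NAC factor that restrains vessel formation, by 2.14 (SE 0.14, adjusted p = 1.14e-07). MYB85 (AT4G22680), an activator of lignin genes, was at 0.119, 0.167 and 0.12 CPM at 24 h against 1.61, 2.02 and 1.73 CPM at 8 h (log2 fold change -3.69, SE 0.248, adjusted p = 1.37e-07). The members span master switches, cellulose and xylan enzymes, laccases and cell death proteases, and only VND1 was not called. NST1 and SND1, with at most 11 counts in any group, were not tested.

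Phloem genes fell less evenly. Of 21 tested genes, 18 fell (30.2% over all genes), 10 at least 2-fold (12.9% over all genes), with a median of -0.80. SEOR1 (AT3G01680, chromosome 3, 251868 to 255513, plus strand) and SEOR2, the filament proteins of sieve elements, fell most among abundant members. SEOR1 was at 30.4, 30.7 and 38.4 CPM in induced roots at 24 h, against 154, 154 and 142 CPM at 8 h (log2 fold change -2.18, SE 0.122, adjusted p = 3.1e-08), and averaged 182 ± 21.7 CPM in mock roots at 24 h and 183 ± 26 CPM in mock roots at 8 h. SEOR2 (AT3G01670) fell by 2.05 (SE 0.147, adjusted p = 2.35e-07). CLE26 (AT1G69970), a signal peptide of the protophloem, was at 0.548, 0.573 and 0.505 CPM at 24 h against 3.02, 2.9 and 2.71 CPM at 8 h (log2 fold change -2.40, SE 0.168, adjusted p = 1.94e-07), and NAC45 (AT3G03200), a NAC factor that acts in the loss of the nucleus from sieve elements, fell by 1.88 (SE 0.203, adjusted p = 6.72e-06). The induced groups did not overlap for any of these 4 genes, which were named as the largest called falls with at least 1 CPM. Over all tested genes 65.5% did not overlap. SUC2, BRX and SWEET12 were not called. SWEET11, with at most 63 counts in a group, was not tested.

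Suberin genes had the lowest median of the 36 lists. All 23 fell (30.2% over all genes), 20 of them at least 2-fold (12.9% over all genes). The median was -3.23, and none was called in mock roots (median -0.03). The summed level was 152 to 248 CPM in induced roots at 24 h and 1348 to 1544 CPM in induced roots at 8 h, against 1888 to 2220 CPM in mock roots at 24 h and 1986 to 2350 CPM in mock roots at 8 h. CYP86A1 (AT5G58860, chromosome 5, 23765791 to 23768111, minus strand), which hydroxylates fatty acids for suberin, was at 8.98, 12.4 and 19 CPM in induced roots at 24 h, against 257, 214 and 219 CPM at 8 h (log2 fold change -4.10, SE 0.204, adjusted p = 1.39e-08), and averaged 341 ± 27.1 CPM in mock roots at 24 h and 315 ± 6.92 CPM in mock roots at 8 h. FAR5 (AT3G44550, chromosome 3, 16137576 to 16142270, plus strand), which makes the fatty alcohols of suberin waxes, was at 1.88, 3.92 and 5.34 CPM at 24 h against 94.7, 71.7 and 90.7 CPM at 8 h (log2 fold change -4.53, SE 0.266, adjusted p = 4.66e-08). ABCG2 (AT2G37360), an exporter of suberin precursors, was at 2.29, 3.6 and 3.97 CPM at 24 h against 65.5, 51.1 and 50.3 CPM at 8 h (log2 fold change -4.08, SE 0.169, adjusted p = 5.01e-09). CYP86B1 (AT5G23190), for very long chain suberin acids, fell by 3.78 (SE 0.198, adjusted p = 1.94e-08). Within induced roots at 24 h, replicate 3 was the highest and replicate 1 the lowest for each of these 4 genes, and the groups were far apart in spite of it.

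**Figure D5:**
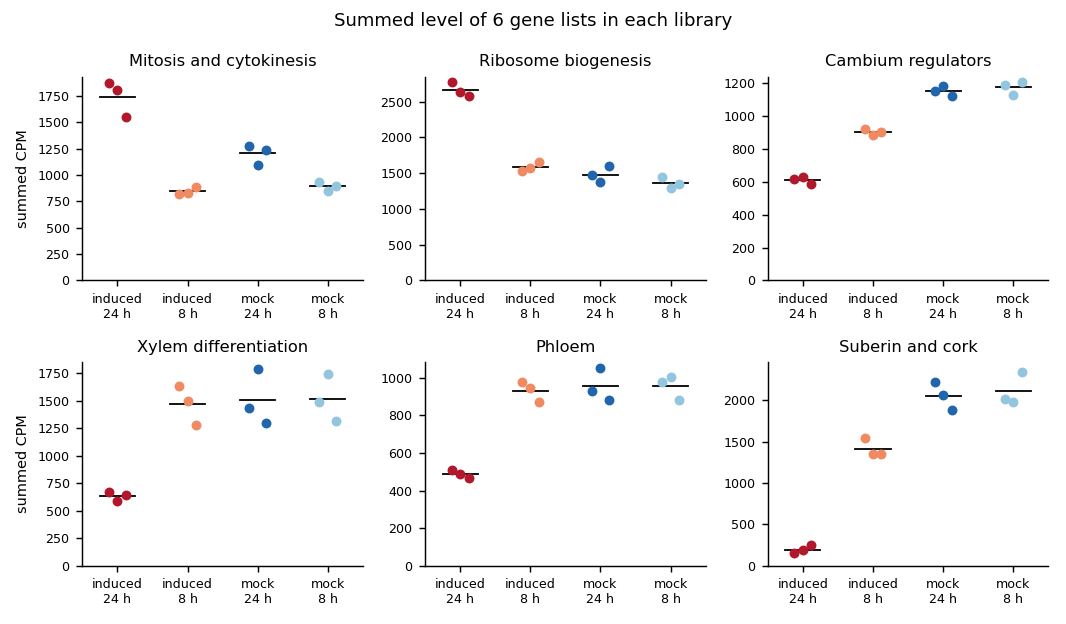
Summed CPM of 6 gene lists in each library (points) with the mean of each group of 3 (bar), for induced 24 h, induced 8 h, mock 24 h and mock 8 h from left to right. Each vertical axis starts at 0, and the sums are scaled to the library total only. The xylem and phloem sums of induced roots at 8 h lie near those of mock roots, the cambium and suberin sums lie lower, and at 24 h of induction all 4 sums are the lowest.

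Of 17 lignin pathway genes, 9 fell and none rose (median -0.57), beside 30.2% and 27.9% over all genes. There was 1 rise under the replicate block, the fit on 6 libraries or without mock 8 h replicate 1. PAL4 (AT3G10340) and PAL1 (AT2G37040), phenylalanine ammonia lyases at the entry of the phenylpropanoid pathway, fell by 2.87 (SE 0.138, adjusted p = 1.06e-08) and 1.82 (SE 0.128, adjusted p = 2.01e-07). PAL1 was at 108, 98 and 98.1 CPM in induced roots at 24 h, against 432, 276 and 366 CPM at 8 h, with no overlap. 4CL3 (AT1G65060), the ligase that serves flavonoids, fell by 1.21 (SE 0.0939, adjusted p = 4.52e-07), and its change in mock roots was -0.44 (adjusted p = 0.039). C4H, the next enzyme after the lyases, was not called (-0.15, adjusted p = 0.0651). It was called lower under 5 alternatives, among them DESeq2 (adjusted p = 0.0271) and median ratio factors (adjusted p = 0.0429).

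Of 12 tested endodermis and Casparian strip genes 2 rose and 4 fell, shares not far from the 27.9% and 30.2% over all genes. SHR (AT4G37650, chromosome 4, 17691687 to 17693859, plus strand) and SCR, the regulators that set endodermal identity in the root tip, rose. SHR was at 87.6, 75.4 and 68.3 CPM in induced roots at 24 h, against 28.1, 35.5 and 28 CPM at 8 h (log2 fold change 1.34, SE 0.126, adjusted p = 2.22e-06), and averaged 13.6 ± 0.79 CPM in mock roots at 24 h and 13.3 ± 2.21 CPM in mock roots at 8 h. SCR (AT3G54220) was at 7.08, 7.97 and 9.04 CPM at 24 h against 3.78, 3.72 and 4.05 CPM at 8 h (log2 fold change 1.06, SE 0.179, adjusted p = 0.000263). SGN3 (AT4G20140), the receptor kinase that monitors the Casparian strip, was at 5.84, 8 and 9.86 CPM at 24 h against 43.9, 39.8 and 38.9 CPM at 8 h (log2 fold change -2.37, SE 0.132, adjusted p = 2.93e-08). RBOHF, an oxidase for lignin polymerisation, fell by 1.41 (SE 0.128, adjusted p = 1.62e-06), MYB36, the activator of Casparian strip genes, by 1.11 (SE 0.187, adjusted p = 0.000249), and the kinase gene SGN1 by 1.04 (SE 0.138, adjusted p = 3.56e-05). The remaining 6 tested members, among them the barrier genes CASP1 and PER64, were not called. Induced 24 h replicate 2 stood apart for several of them. CASP1, which scaffolds the strip, was at 0.0238, 1.79 and 0.168 CPM in induced roots at 24 h, against 1.53, 0.31 and 0.748 CPM at 8 h, and PER64, a peroxidase of the strip, at 0, 2.36 and 0.0481 CPM against 1.56, 0.414 and 0.515 CPM. Without that library both were called lower at 24 h (adjusted p = 0.017 for CASP1 and 0.00415 for PER64). COBL9, a root hair wall protein, was at 0.0476, 1.5 and 0.265 CPM at 24 h against 0.317, 0.129 and 0.283 CPM at 8 h, with the same library high. Whether traces of young lateral roots or root hairs differed between these libraries was not tested.

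Auxin biosynthesis rose along part of the pathway. Of 9 tested genes, 5 rose, all at least 2-fold, and 2 fell, beside 27.9% that rose and 30.2% that fell over all genes. YUC8 (AT4G28720, chromosome 4, 14192569 to 14194302, plus strand), a flavin monooxygenase that makes auxin from indole-3-pyruvate, was at 39.9, 35.2 and 34.7 CPM in induced roots at 24 h, against 5.48, 5.2 and 4.72 CPM at 8 h (log2 fold change 2.83, SE 0.153, adjusted p = 2.37e-08), and averaged 0.701 ± 0.262 CPM in mock roots at 24 h and 0.729 ± 0.284 CPM in mock roots at 8 h. YUC3 (AT1G04610) and YUC7 (AT2G33230), enzymes of the same step, were near absent at 8 h. YUC3 was at 3.31, 2.41 and 2.48 CPM at 24 h against 0.146, 0.207 and 0.258 CPM at 8 h (log2 fold change 3.73, SE 0.489, adjusted p = 3.33e-05), and YUC7 at 4.1, 3.1 and 3.29 CPM against 0.0975, 0.543 and 0.155 CPM (log2 fold change 3.72, SE 0.499, adjusted p = 4.05e-05). TAA1 (AT1G70560), the aminotransferase of the step before, was at 25.8, 22.9 and 21.6 CPM at 24 h against 6.85, 9.67 and 6.96 CPM at 8 h (log2 fold change 1.58, SE 0.172, adjusted p = 7.08e-06). YUC4 rose by 1.14 at under 1 CPM. YUC9 went the other way, with 19.8, 16 and 22.1 CPM at 24 h against 26.8, 25.8 and 28.2 CPM at 8 h (log2 fold change -0.48, SE 0.136, adjusted p = 0.0087), and averaged 5.06 ± 1.03 CPM in mock roots at 24 h and 3.68 ± 0.585 CPM in mock roots at 8 h. YUC6 fell by 1.50 (SE 0.2, adjusted p = 4.05e-05). TAR1, YUC1, YUC2, YUC10 and YUC11 were too low to be tested. Of 7 tested SHI/STY and NGATHA factors, some of which activate YUC genes, STY2 and SRS5 fell by 1.07 (SE 0.234, adjusted p = 0.00179) and 1.04 (SE 0.146, adjusted p = 6.22e-05). SHI rose by 0.39 (SE 0.128, adjusted p = 0.0204), a call that was lost without replicates 1 or 2 of either induced group, with adjusted p-values up to 0.0873.

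Auxin carriers mostly fell. Of 15 tested genes, 9 fell and 3 rose, beside 30.2% and 27.9% over all genes. PIN5 (AT5G16530), a carrier of the endoplasmic reticulum, was at 0.0953, 0.191 and 0.192 CPM in induced roots at 24 h, against 4.04, 2.25 and 3.63 CPM at 8 h (log2 fold change -4.35, SE 0.31, adjusted p = 2.2e-07), and averaged 15.4 ± 0.329 CPM in mock roots at 24 h and 19 ± 2.62 CPM in mock roots at 8 h. PIN7 (AT1G23080), an efflux carrier of the vascular tissue, was at 9.7, 10.07 and 10.05 CPM at 24 h against 26, 21.1 and 27 CPM at 8 h (log2 fold change -1.31, SE 0.089, adjusted p = 1.48e-07). The influx carriers LAX1 (AT5G01240) and LAX2 (AT2G21050) fell by 1.54 (SE 0.0594, adjusted p = 3.46e-09) and 1.21 (SE 0.0757, adjusted p = 7.88e-08). The kinase PID, which directs PIN proteins, rose by 0.83 (SE 0.102, adjusted p = 1.9e-05), and the transporters ABCB19 and ABCB1 by 0.49 (SE 0.0869, adjusted p = 0.000385) and 0.17 (SE 0.0488, adjusted p = 0.0108). The call of ABCB1 was lost without induced 8 h replicate 2 (adjusted p = 0.0513). PIN3 was not called.

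Of 23 auxin response genes, 5 rose and 8 fell, near the shares over all genes (27.9% and 30.2%), and the median was -0.37. GH3.2 (AT4G37390, chromosome 4, 17579618 to 17582022, plus strand), which conjugates auxin to amino acids, was at 24, 34.7 and 33.9 CPM in induced roots at 24 h, against 1.8, 2.97 and 2.6 CPM at 8 h (log2 fold change 3.65, SE 0.284, adjusted p = 4.56e-07), and averaged 1.23 ± 0.378 CPM in mock roots at 24 h and 1.2 ± 0.761 CPM in mock roots at 8 h. Only the 3 libraries at 24 h of induction held more than 3 CPM. LBD16 (AT2G42430), a target of auxin in lateral root founding, rose by 0.91 (SE 0.207, adjusted p = 0.00233). IAA3 (AT1G04240), an Aux/IAA repressor, was at 17.6, 16.2 and 20.9 CPM at 24 h against 85.3, 75.1 and 82.8 CPM at 8 h (log2 fold change -2.15, SE 0.118, adjusted p = 2.51e-08), and IAA2 (AT3G23030) fell by 1.01 (SE 0.132, adjusted p = 3.23e-05). The count of 8 falls was 5 without induced 8 h replicate 2 or without induced 24 h replicate 1. Of 7 tested lateral root founding genes, LBD16 was the only one to rise and ARF19 the only one to fall (0.61, SE 0.0671, adjusted p = 7.37e-06), with 2 falls under DESeq2, 2 other settings, the replicate block and without induced 8 h replicate 3.

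Cytokinin genes fell further. Of 31 tested response and metabolism genes, 22 fell (30.2% over all genes), 15 at least 2-fold (12.9% over all genes). Only 2 rose, IPT1 and ARR3, both under 1 CPM in every induced library. The median was -0.94, and -0.02 in mock roots. ARR6 (AT5G62920, chromosome 5, 25252007 to 25254318, minus strand), a type-A response regulator and direct cytokinin target, was at 4.48, 4.8 and 4.83 CPM in induced roots at 24 h, against 18.9, 12.4 and 20.21 CPM at 8 h (log2 fold change -1.87, SE 0.189, adjusted p = 3.91e-06), and averaged 38 ± 5.71 CPM in mock roots at 24 h and 39.4 ± 6.23 CPM in mock roots at 8 h. IPT3 (AT3G63110) and IPT5 (AT5G19040), which make the cytokinin precursor, fell by 1.8 (SE 0.147, adjusted p = 6.58e-07) and 2.57 (SE 0.307, adjusted p = 1.55e-05). IPT3 was at 3.93, 3.48 and 3.37 CPM at 24 h against 12.1, 10.4 and 15.2 CPM at 8 h. CKX6 (AT3G63440), a cytokinin oxidase, was at 5.55, 6.8 and 5.5 CPM at 24 h against 36.6, 34.8 and 38.6 CPM at 8 h (log2 fold change -2.62, SE 0.104, adjusted p = 3.89e-09), and averaged 47.4 ± 3.4 CPM in mock roots at 24 h and 46.6 ± 4.95 CPM in mock roots at 8 h. For these 4 genes the induced libraries at 24 h lay below all others. IPT1 had 49 counts over the 3 induced libraries at 24 h and 3 at 8 h, a ratio of 16 with a 95% counting interval of 5.18 to 80.5. ARR3 lost its call without induced 8 h replicates 1, 2 or 3 or induced 24 h replicate 2 (adjusted p up to 0.146) and with the replicate number as a block (adjusted p = 0.0529).

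Gibberellin genes fell in 10 of 14 tested cases (30.2% over all genes), and GA20OX2 was the only one to rise (0.76, SE 0.206, adjusted p = 0.00686). GA3OX1 (AT1G15550), which makes the active hormone, was at 3.93, 4.66 and 5.05 CPM in induced roots at 24 h, against 21.3, 17.7 and 17.6 CPM at 8 h (log2 fold change -2.05, SE 0.117, adjusted p = 3.7e-08). GA2OX1 (AT1G78440) and GA2OX8 (AT4G21200), which inactivate gibberellins, fell by 2.13 (SE 0.22, adjusted p = 4.61e-06) and 1.51 (SE 0.222, adjusted p = 8.86e-05). The induced groups did not overlap for these 3 genes (65.5% over all genes). GA2OX8 was at 2.26, 2.96 and 3.99 CPM in induced roots at 24 h, against 7.55, 8.79 and 9.85 CPM at 8 h. Its mock means were 2.4 ± 0.448 CPM at 24 h and 2.15 ± 0.622 CPM at 8 h. The induced libraries at 8 h were thus above the mock range for GA2OX8, and those at 24 h overlapped it. For GA2OX1 the induced libraries at 24 h lay below every mock library. GA2OX2 fell by 0.90 (SE 0.289, adjusted p = 0.0175), a call lost without induced 8 h replicate 2 or 3 or induced 24 h replicate 2 (adjusted p up to 0.0641). The 3 receptor genes GID1A, GID1B and GID1C fell by between 0.39 and 0.59.

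Among 11 tested abscisic acid and drought genes, 4 rose and 3 fell, near the 27.9% and 30.2% over all genes. NCED3 (AT3G14440), the rate-limiting enzyme of abscisic acid synthesis in drought, was at 7.58, 7.42 and 8.08 CPM in induced roots at 24 h, against 1.36, 1.89 and 2.32 CPM at 8 h (log2 fold change 2.05, SE 0.248, adjusted p = 1.68e-05). RD29A (AT5G52310), a drought and cold marker, was at 341, 204 and 239 CPM at 24 h against 70.6, 59.8 and 62 CPM at 8 h (log2 fold change 2.03, SE 0.2, adjusted p = 3.24e-06), and averaged 90.2 ± 22.4 CPM in mock roots at 24 h and 82.8 ± 12.2 CPM in mock roots at 8 h. CYP707A1 (AT4G19230), which breaks the hormone down, fell by 1.40 (SE 0.0979, adjusted p = 1.91e-07). KIN1 (AT5G15960), another cold and drought marker, was at 206, 76.8 and 119 CPM at 24 h against 519, 263 and 258 CPM at 8 h (log2 fold change -1.37, SE 0.333, adjusted p = 0.00353), so the stress markers did not move together. ABI1 and HAI1, phosphatases of abscisic acid signalling, rose by 0.22 (SE 0.0717, adjusted p = 0.0171) and 1.02 (SE 0.393, adjusted p = 0.0409), and COR15A fell by 0.80 (SE 0.301, adjusted p = 0.0365). These 3 calls did not hold throughout. ABI1 was not called without induced 8 h replicate 2 (adjusted p = 0.0778), which left 2 rises. HAI1 lost its call without any of 8 libraries, each in turn, among them 3 of mock roots (adjusted p up to 0.18). COR15A lost its call in the fit on 6 libraries and without any of induced 24 h replicates 2 and 3 and induced 8 h replicates 1 and 3 (adjusted p up to 0.147).

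Of 15 tested jasmonate genes, 1 rose and 2 fell (27.9% and 30.2% over all genes), and replicates varied widely for most of the rest. VSP2 (AT5G24770), a vegetative storage protein, was at 218, 158 and 236 CPM in induced roots at 24 h, against 1895, 1683 and 1157 CPM at 8 h (log2 fold change -2.95, SE 0.222, adjusted p = 3.44e-07). VSP1 (AT5G24780) fell by 2.2 (SE 0.2, adjusted p = 1.66e-06), and the pair are close copies that can share reads. AOC2 (AT3G25770), a jasmonate synthesis enzyme, rose by 1.77 (SE 0.249, adjusted p = 6e-05). None of 9 tested defence, camalexin and indole glucosinolate genes rose, and 3 fell; 1 rose under DESeq2, no filter on low counts, the replicate block, the fit on 6 libraries or without induced 8 h replicate 3. CYP79B2 (AT4G39950) and CYP79B3 (AT2G22330), which convert tryptophan to indole-3-acetaldoxime, fell by 0.90 (SE 0.133, adjusted p = 8.83e-05) and 1.37 (SE 0.171, adjusted p = 2.15e-05), and MYB51, an activator of the indole glucosinolate genes, by 0.85 (SE 0.215, adjusted p = 0.00441). The jasmonate count of 1 rise was 2 or 3 with total library size, no filter on low counts, the replicate block, or without mock 8 h replicate 2, induced 8 h replicate 3 or induced 24 h replicate 2.

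Of 5 tested WOX genes outside the cambium, 2 rose and 1 fell, beside 27.9% and 30.2% over all genes. The counts were 4 rises with no filter on low counts, and 2 falls without induced 8 h replicate 2. WOX5 (AT3G11260, chromosome 3, 3527280 to 3528440, plus strand), the homeobox gene of the root quiescent centre, was at 2.33, 1.79 and 2.45 CPM in induced roots at 24 h, against 0.244, 0.646 and 0.387 CPM at 8 h (log2 fold change 2.36, SE 0.304, adjusted p = 2.9e-05), and averaged 0.0702 ± 0.0128 CPM in mock roots at 24 h and 0.071 ± 0.0385 CPM in mock roots at 8 h. WOX12 (AT5G17810), of root founder cells in regeneration, was at 9.94, 7.28 and 8.44 CPM at 24 h against 1.29, 2.25 and 2.19 CPM at 8 h (log2 fold change 2.16, SE 0.229, adjusted p = 5.61e-06), and averaged 2.15 ± 0.434 CPM in mock roots at 24 h and 2.59 ± 0.613 CPM in mock roots at 8 h. WOX13 fell by 0.36 (SE 0.062, adjusted p = 0.00031). Of 7 tested root cap and root tip genes 5 rose and none fell, among them JKD (1.07, SE 0.188, adjusted p = 0.00037) and MGP (1.52, SE 0.332, adjusted p = 0.00173), zinc finger partners of SHR and SCR. MGP was at 0.929, 1.62 and 1.47 CPM at 24 h against 0.39, 0.388 and 0.619 CPM at 8 h, and averaged 1.7 ± 0.578 CPM in mock roots at 24 h and 1.72 ± 0.368 CPM in mock roots at 8 h, so its induced libraries at 8 h lay below every mock library and those at 24 h overlapped the mock range. JKD averaged 2.74 ± 0.371 CPM in mock roots at 24 h and 2.63 ± 0.239 CPM in mock roots at 8 h. FEZ, a regulator of root cap stem cells, was at 1.19, 1.15 and 0.577 CPM at 24 h against 0.0244, 0.103 and 0.129 CPM at 8 h (log2 fold change 3.47, SE 0.542, adjusted p = 0.000139). WOX5, given above, is counted in this list as well. SMB rose by 0.78 (SE 0.264, adjusted p = 0.0227) at under 1 CPM. Its call was lost with DESeq2 (adjusted p = 0.0841), without induced 8 h replicate 2 or 3, and without induced 24 h replicate 2 or 3. The summed level of the root tip list was 16.9 to 18.2 CPM in induced roots at 24 h and 8.02 to 10.3 CPM in induced roots at 8 h, against 8.45 to 11.1 CPM in mock roots at 24 h and 8.52 to 10.4 CPM in mock roots at 8 h. The root tip marker RGF1 and BRN2 were too low to be tested.

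Of 10 tested boundary, regeneration and embryo regulators, 3 rose and 5 fell, the rises being near the 27.9% over all genes (30.2% fell). CUC2 (AT5G53950, chromosome 5, 21901704 to 21903854, minus strand), an organ boundary factor, was at 11.5, 10.5 and 10.6 CPM in induced roots at 24 h, against 2.85, 4.09 and 3.63 CPM at 8 h (log2 fold change 1.63, SE 0.183, adjusted p = 9.61e-06), and averaged 0.246 ± 0.121 CPM in mock roots at 24 h and 0.327 ± 0.113 CPM in mock roots at 8 h. Its relative CUC3 fell by 1.65 (SE 0.273, adjusted p = 0.000222) at under 1 CPM. LAS (AT1G55580), needed for axillary meristems, fell by 1.41 (SE 0.151, adjusted p = 6.41e-06), AGL15 (AT5G13790), a MADS factor of embryos, by 0.91 (SE 0.127, adjusted p = 5.46e-05), WIND1, a wound-induced regeneration factor, by 0.21 (SE 0.0694, adjusted p = 0.0221), and KNAT6 (AT1G23380), a boundary KNOX gene, by 0.67 (SE 0.0681, adjusted p = 3.9e-06). The call of WIND1 was lost with total library size (adjusted p = 0.0894) and without induced 8 h replicate 3 or induced 24 h replicate 1 or 3 (adjusted p up to 0.0687). LEC2, a master regulator of embryo maturation, had 0 counts in the 3 induced libraries at 8 h and 68 counts at 24 h, at least 22.3-fold more when a floor of 3 counts over the group is assumed. ESR1, a shoot regeneration factor, was at 1.55, 0.883 and 0.481 CPM at 24 h against 0.0487, 0.0517 and 0 CPM at 8 h (log2 fold change 4.72, SE 0.712, adjusted p = 0.000219). Its interaction was not called (adjusted p = 0.143), with at most 1 count in either mock group. The 5 untested members of this list were STM, LEC1, FUS3, ABI3 and ESR2. None of 8 seed storage and late embryogenesis genes passed the filter on low counts, and none exceeded 2 counts over any induced group.

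Polarity genes of leaves rose in 3 of 5 tested cases, beside 27.9% over all genes. YAB1 (AT2G45190, chromosome 2, 18628252 to 18630779, minus strand), known as FILAMENTOUS FLOWER, was at 8.41, 6.4 and 6.59 CPM in induced roots at 24 h, against 0.536, 0.75 and 0.619 CPM at 8 h (log2 fold change 3.49, SE 0.222, adjusted p = 4.38e-07), and was at 0, 0 and 0.0279 CPM in mock roots at 24 h, against 0, 0 and 0 CPM in mock roots at 8 h. AS2 (AT1G65620) was at 1.41, 1.24 and 1.44 CPM at 24 h against 0.0244, 0.0776 and 0.0773 CPM at 8 h (log2 fold change 4.45, SE 0.407, adjusted p = 1.72e-06), and KAN1 (AT5G16560) rose by 0.88 (SE 0.101, adjusted p = 1.12e-05). Of these 3 genes the interaction was called for KAN1 only (adjusted p = 5.69e-05). It was not called for AS2 (adjusted p = 0.182) or YAB1 (adjusted p = 0.773), which held at most 2 counts in either mock group. AS1, the partner of AS2, fell by 0.39 (SE 0.12, adjusted p = 0.013), a call lost without induced 24 h replicate 2 (adjusted p = 0.0591). Of 9 tested growth-regulating factors, GRF3 and GRF2, promoters of cell number in organs, rose by 1.16 (SE 0.182, adjusted p = 0.000147) and 1.15 (SE 0.166, adjusted p = 7.6e-05), and none fell. Over all tested genes 27.9% rose and 30.2% fell, so the list did not rise more often than genes at large.

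CYP78A genes, whose P450 enzymes are known to promote organ growth, diverged. CYP78A8 (AT1G01190, chromosome 1, 82984 to 84946, minus strand) was at 0.0953, 0.191 and 0.12 CPM in induced roots at 24 h, against 9.53, 6.59 and 8.74 CPM at 8 h (log2 fold change -5.90, SE 0.312, adjusted p = 2.03e-08), and averaged 76.6 ± 4.93 CPM in mock roots at 24 h and 72.5 ± 14.7 CPM in mock roots at 8 h. CYP78A5 had 1 count over the induced libraries at 24 h and was at 0.902, 0.569 and 1.11 CPM at 8 h. CYP78A9 (AT3G61880) was at 3.55, 3.25 and 3.68 CPM at 24 h against 1.1, 1.16 and 1.47 CPM at 8 h (log2 fold change 1.49, SE 0.174, adjusted p = 1.27e-05), and averaged 10.6 ± 1.88 CPM in mock roots at 24 h and 13.1 ± 1.56 CPM in mock roots at 8 h. Both induced groups lay below every mock library. CYP78A7, untested, had 34 counts over the induced libraries at 24 h and 3 at 8 h.

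Of 15 tested alpha-expansins, which loosen cell walls in growth, 3 rose and 5 fell, near the 27.9% and 30.2% over all genes. EXPA17 (AT4G01630) and EXPA15 (AT2G03090) fell by 2.39 (SE 0.257, adjusted p = 6.49e-06) and 1.63 (SE 0.193, adjusted p = 1.45e-05), and EXPA9 (AT5G02260) and EXPA14 (AT5G56320) rose by 1.40 (SE 0.26, adjusted p = 0.000554) and 1.56 (SE 0.448, adjusted p = 0.00995). EXPA17 was at 2, 2.32 and 3.37 CPM in induced roots at 24 h, against 14.6, 9.88 and 15.9 CPM at 8 h. EXPA9 was at 9.82, 11 and 10.4 CPM at 24 h against 4.39, 2.82 and 4.59 CPM at 8 h, and averaged 10.03 ± 3.08 CPM in mock roots at 24 h and 10.2 ± 2.98 CPM in mock roots at 8 h. EXPA14 was at 1.02, 1.81 and 1.42 CPM at 24 h against 0.512, 0.414 and 0.515 CPM at 8 h, and averaged 1.48 ± 0.733 CPM in mock roots at 24 h and 1.7 ± 0.794 CPM in mock roots at 8 h. For both genes the induced libraries at 24 h lay within the mock range and those at 8 h below it.

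PCK1 (AT4G37870, chromosome 4, 17802690 to 17806705, minus strand), phosphoenolpyruvate carboxykinase of gluconeogenesis from organic acids, was at 4142, 3782 and 3765 CPM in induced roots at 24 h, against 1738, 1880.0 and 1851 CPM at 8 h (log2 fold change 1.1, SE 0.0637, adjusted p = 4.25e-08), and averaged 548 ± 21.1 CPM in mock roots at 24 h and 607 ± 34.3 CPM in mock roots at 8 h. It was the only one of 18 glyoxylate cycle and beta-oxidation genes to change 2-fold: MFP2 rose by 0.34 (SE 0.0536, adjusted p = 0.000163) and 5 fell. With 2 rises and 5 falls, beside 27.9% and 30.2% over all genes, the list did not change more often than genes at large. SDP1 (AT5G04040), a lipase that starts the breakdown of storage oil, fell by 0.40 (SE 0.0673, adjusted p = 0.000264) and ACX2 (AT5G65110), an acyl-CoA oxidase, by 0.40 (SE 0.0882, adjusted p = 0.00182). ICL fell by 0.35 (SE 0.111, adjusted p = 0.0158), a call lost without induced 8 h replicate 1 (adjusted p = 0.0924) or induced 24 h replicate 2 (0.0713). The rises were 4 with total library size or the replicate block. The counts of 2 rises and 5 falls were 4 and 3 without induced 24 h replicate 2, and the falls were 3 without induced 8 h replicate 1. MLS, the malate synthase that defines the glyoxylate cycle together with ICL, was not called.

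Clock genes moved both ways, 11 up and 8 down of 24, beside 27.9% and 30.2% over all genes. The share of falls was thus near that of genes at large. LNK2 (AT3G54500) and LNK3 (AT3G12320), coactivators of the evening genes, rose by 1.43 (SE 0.212, adjusted p = 9.12e-05) and 1.31 (SE 0.211, adjusted p = 0.00018), PRR9 by 1.03 (SE 0.195, adjusted p = 0.000623), and RVE2 fell by 1.06 (SE 0.111, adjusted p = 5.16e-06). For PRR9 the mock change was 0.81 (adjusted p = 0.128). The interaction was called in the same direction for only 4 of the 19 clock genes that changed. No source used here gives the time of day of the harvests, and their part in these changes was not tested. The count of 11 was 7 without induced 8 h replicate 2 or 3.

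Root hair and epidermis genes rose in 4 of 10 cases and fell in 1, beside 27.9% and 30.2% over all genes. The interaction was called higher for 2 of the 4. The summed level of the list went down, with 28.75 to 39.05 CPM in induced roots at 24 h and 45.37 to 58.8 CPM at 8 h. Mock roots held 69.44 to 82.46 CPM at 24 h and 75.53 to 87.8 CPM at 8 h. CPC (AT2G46410), a mobile MYB that promotes hair cells, was at 5.27, 4.54 and 4.21 CPM in induced roots at 24 h, against 0.829, 0.802 and 0.644 CPM at 8 h (log2 fold change 2.62, SE 0.179, adjusted p = 1.55e-07). RHD6 (AT1G66470), the initiator of hairs, was at 5.29, 4.68 and 6.2 CPM at 24 h against 1.07, 2.35 and 1.86 CPM at 8 h (log2 fold change 1.62, SE 0.327, adjusted p = 0.00102), and WER (AT5G14750), which marks cells without hairs, and GL2, its target, rose by 1.34 (SE 0.357, adjusted p = 0.00641) and 0.89 (SE 0.231, adjusted p = 0.00538). RHD2, an oxidase of hair growth, fell by 1.57 (SE 0.174, adjusted p = 8.25e-06).

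Nuclear photosynthesis genes, a check on green tissue, fell in 18 of 20 cases (30.2% over all genes) with a median of -0.56. LHCB1.3 (AT1G29930), a light-harvesting protein, was at 804, 824 and 780.2 CPM in induced roots at 24 h, against 1712, 1612 and 1351 CPM at 8 h (log2 fold change -0.96, SE 0.113, adjusted p = 1.41e-05), and averaged 1442 ± 252 CPM in mock roots at 24 h and 1419 ± 28.5 CPM in mock roots at 8 h. RBCS1B, RBCS3B and LHCA2 fell by 3.84 (SE 0.349, adjusted p = 1.65e-06), 1.27 (SE 0.141, adjusted p = 8.59e-06) and 0.76 (SE 0.0901, adjusted p = 1.46e-05), and RBCS and LHCB genes have close copies that can share reads. The summed level was 4042 to 4290 CPM in induced roots at 24 h and 5374 to 6576 CPM in induced roots at 8 h, against 4579 to 6059 CPM in mock roots at 24 h and 4954 to 5147 CPM in mock roots at 8 h. Of 10 housekeeping genes 4 rose and 3 fell, none 2-fold: GAPC1 rose by 0.56 (SE 0.0806, adjusted p = 7.68e-05), and ACT8 and ACT2 fell by 0.44 (SE 0.0758, adjusted p = 0.000288) and 0.38 (SE 0.0621, adjusted p = 0.000181). Over all genes 27.9% rose and 30.2% fell. The count of 4 housekeeping rises was 1 or 2 without any induced library other than induced 8 h replicate 1, TIP41 among the calls lost.

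Among genes with at least 5 CPM at the higher time, the largest rise was that of CYP81D2 (AT4G37360, chromosome 4, 17567124 to 17568858, minus strand), a cytochrome P450. It was at 5.27, 6.83 and 6.63 CPM in induced roots at 24 h, with 0 counts in all 3 induced libraries at 8 h, at least 256-fold more over a floor of 3 counts for the group. Mock roots held 1 count of it at each time. AT4G19750 and AT4G19730, neighbours on chromosome 4 annotated as glycosyl hydrolases, came next. AT4G19750 was at 20.5, 24.3 and 24.5 CPM at 24 h against 0.0487, 0.362 and 0.335 CPM at 8 h (log2 fold change 6.54, SE 0.297, adjusted p = 4.21e-08), and AT4G19730 was at 5.38, 5.85 and 6.06 CPM against 0.0244, 0.103 and 0.0515 CPM (log2 fold change 6.53, SE 0.333, adjusted p = 9.28e-08). Similar genes stand beside them, so the split of reads within this cluster is uncertain. MRN1 (AT5G42600, chromosome 5, 17053453 to 17058245, plus strand), which makes the triterpene marneral, was at 10.2, 9.53 and 8.51 CPM at 24 h against 0.195, 0.336 and 0.129 CPM at 8 h (log2 fold change 5.40, SE 0.255, adjusted p = 9.75e-09). The others were AT4G30250, a P-loop hydrolase (5.17, SE 0.343, adjusted p = 1.23e-07), AT5G44260, a zinc finger protein (5.10, SE 0.452, adjusted p = 1.32e-06), AT4G37850, a bHLH factor (4.98, SE 0.328, adjusted p = 1.19e-07), EDA12 (4.66, SE 0.287, adjusted p = 6.71e-08), ASL5, an AS2-like LBD gene (3.94, SE 0.316, adjusted p = 5.76e-07), and GSTU12, a glutathione transferase (3.86, SE 0.248, adjusted p = 9.71e-08). In mock roots the highest mean of these 10 genes was 0.249 CPM, for ASL5 at 24 h. The interaction was not called for AT4G19750 (adjusted p = 0.092) or AT4G19730 (adjusted p = 0.927), which held at most 1 count in either mock group.

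Anthocyanin genes supplied 5 of the 10 largest falls. DFR (AT5G42800, chromosome 5, 17164093 to 17166032, minus strand), dihydroflavonol reductase at the start of the anthocyanin branch, was at 0.167, 0.31 and 0.0962 CPM in induced roots at 24 h, against 49.7, 20.5 and 27.5 CPM at 8 h (log2 fold change -7.39, SE 0.825, adjusted p = 8.85e-06). Its mock libraries were at 42.9, 51.4 and 9.95 CPM at 24 h and 63.8, 69.1 and 95.8 CPM at 8 h, a wide spread in which mock 24 h replicate 3 was the lowest. LDOX (AT4G22880), the next enzyme, was at 0.119, 0.167 and 0.168 CPM at 24 h against 35.4, 14.3 and 18.6 CPM at 8 h (log2 fold change -7.20, SE 0.735, adjusted p = 4.21e-06). UF3GT, which adds a sugar, fell by 6.89 (SE 0.767, adjusted p = 8.65e-06), AT5MAT, which adds malonate, fell by 6.01 (SE 0.612, adjusted p = 4.15e-06), and GSTF12, which carries anthocyanins to the vacuole, fell by 6.68 (SE 0.599, adjusted p = 1.46e-06). AT4G01390, annotated as a TRAF-like protein, fell most and was at 0.262, 0.191 and 0.0962 CPM at 24 h against 61.2, 35.8 and 47 CPM at 8 h (log2 fold change -8.01, SE 0.336, adjusted p = 5.24e-09), and its neighbour AT4G01380, annotated with a plastocyanin-like domain, fell by 7.17 (SE 0.47, adjusted p = 1.11e-07). AT1G24430, an acyltransferase, and AT4G21650, a subtilase, fell by 5.28 (SE 0.216, adjusted p = 4.71e-09) and 5.24 (SE 0.609, adjusted p = 1.23e-05), and the tenth was CYP78A8, described above.

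A list of 20 flavonoid and anthocyanin genes was drawn up after these falls had been seen, so it gives no independent count. Of 19 tested, 16 fell, 15 at least 2-fold, and 1 rose, with a median of -2.74. TT8, the bHLH activator of the late genes, had 0 counts in induced roots at 24 h and was at 0.95, 0.362 and 0.515 CPM at 8 h. PAP1, the MYB activator, was at 0.5, 0.263 and 0.601 CPM at 24 h against 2.58, 2.43 and 4.17 CPM at 8 h (log2 fold change -2.74, SE 0.284, adjusted p = 4.77e-06). GL3, a bHLH factor shared with hair patterning, was the member that rose, with 6.86, 4.7 and 5.6 CPM at 24 h against 1.24, 1.47 and 1.08 CPM at 8 h (log2 fold change 2.17, SE 0.217, adjusted p = 3.57e-06). In mock roots none of the 19 was called, yet 18 were lower at 24 h with a median of -0.68. The interaction was called lower for 14.

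The 3 largest changes in mock roots among called genes with at least 5 CPM were those of GSTF7, CYP71B24 and UGT74F2. GSTF7 (AT1G02920), a stress-induced glutathione transferase, was at 18.1, 21.9 and 29 CPM in mock roots at 24 h, against 68.2, 72.7 and 95.8 CPM at 8 h, a change of -1.78 (adjusted p = 0.00415), and fell by 0.57 in induced roots (SE 0.162, adjusted p = 0.00954). UGT74F2 (AT2G43820), which glucosylates salicylic acid, changed by -0.85 (adjusted p = 0.0464) in mock roots and by -2.82 in induced roots (SE 0.184, adjusted p = 1.11e-07). CYP71B24 (AT3G26230), a cytochrome P450, moved in opposite directions. It was at 0.548, 0.692 and 0.745 CPM in induced roots at 24 h, against 4.68, 3.26 and 4.46 CPM at 8 h (log2 fold change -2.64, SE 0.234, adjusted p = 1.33e-06), and at 10.2, 9.13 and 12.8 CPM in mock roots at 24 h, against 4.75, 5.4 and 7.09 CPM at 8 h, a change of 0.90 (adjusted p = 0.0446).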

How the data were processed

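The series held 12 RNA libraries of 4 groups with 3 biological replicates each. Per the labels' protocols, RNA was extracted with a GeneJET plant kit and sequenced with TruSeq stranded total RNA libraries. The deposited files hold raw counts per gene for 34262 loci, made by the authors on TAIR10 per the submitters' processing notes; of the aligner, the counter and its strand setting, none is given in the sources used here. Overlapping and antisense genes therefore cannot be told apart with certainty.

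Counts were tested in edgeR 4.0.16 (R 4.3.3, limma 3.58.1) by its quasi-likelihood F test, with trimmed mean scaling, its default filter on low counts by group and one mean per group over all 12 libraries, so that the 4 groups shared the spread (biological coefficient of variation 0.0926). The contrasts were induced 24 h minus induced 8 h, mock 24 h minus mock 8 h, and their difference. P-values were adjusted by Benjamini-Hochberg over 21439 genes, with a threshold of 0.05. CPM values of single genes were computed from the counts with the same scaling, and standard errors are the fold change divided by the root of F. Summed levels of lists were scaled to the library total only. The trimmed mean factors left out of these sums ran from 0.9504 in mock 8 h replicate 1 to 1.0724 in induced 24 h replicate 2. The procedure was tested on simulated data. Replicates differed by more than sampling noise. Names and promoters came from RefSeq TAIR10.1, which matched 32548 loci.

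Named genes were PLT5, the 10 largest rises and falls among genes with at least 5 CPM and no overlap, up to 4 called members per list with at least 1 CPM, the PLT/AIL and cambium members, and 3 mock genes. ORC1A, MCM3, FIB1 and TOZ came from the promoter rule. YUC4, YUC6, YUC9, KRP3, the auxin carriers that rose, IPT1, ARR3, GA20OX2, SCR, SGN1, FEZ, GL2, LEC2, ESR1, CUC3, WIND1, CASP1, PER64, COBL9, MFP2, ABI1, HAI1, COR15A, CYCD2;1, CYP78A5, TT8, PAP1, GL3, RNR2A, E2FB, PSF3, CYCA2;3, C4H and members named as not called were chosen after their values were seen. SMB was also chosen after its values were seen. The members and all lists were chosen with earlier results of these data known. The alternatives were DESeq2 1.42.0, 2 other scalings, 2 other filters, the replicate number as a block, a fit on 6 libraries and each library left out. Intervals and floors of low counts cover counting error only (95%, exact; floor of 3 counts over a group).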

Additional observations from a re-analysis of the deposited data

Results flagged for a closer look

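The change between 24 h and 8 h differed between induced and mock roots for 8740 of 21439 genes by the interaction term of edgeR's quasi-likelihood test. The induced change lay above the mock change for 3905 of them and below it for 4835. CYP71B24, among the largest changes in mock roots, had the opposite direction in the 2 treatments, with an interaction of -3.53 on the log2 scale. What set either result apart was the test of the difference itself.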

How the results depend on the processing

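Of the counts over all genes, those of induced roots stayed within 1.5 times of their values under every alternative run. When single libraries were left out, 5185 to 5992 genes rose and 5745 to 6515 fell, 758 to 885 rose and 2629 to 2836 fell at least 2-fold, and 7464 to 8534 had an interaction called. The mock count of 142 was 387 with DESeq2, 271 with the replicate block, 0 in a fit on the 6 mock libraries and 1 to 204 with single libraries left out. Genes that rose were 48.0% of calls with trimmed mean scaling, 45.9% with median ratio factors, 55.1% with total library size and 45.7% with DESeq2, and no scaling moved the median of all genes by more than 0.056 on the log2 scale.

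Of 229 named genes, 205 kept their call and direction under all 19 alternatives, 12 of which leave out a library. No named gene turned its direction; 88 values lost a call and 9 gained one, of 4340. Of 1368 list counts, 70 moved by more than 1.5 times, mostly counts of 0 to 5. With the replicate block, mitosis genes called in mock roots were 17 and jasmonate genes that rose 3. Replicate numbers were not used as pairs in the main fit. The 18 correlations of deviations between same-numbered libraries ran from -0.186 to 0.278, and 7 of 12 libraries were closest to their own number. Whether same-numbered libraries belonged together cannot be told from these values.

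Depth limits the statements on low genes: 60 list members were too low to be tested. Pooled plants give 3 values per group, so the spread is that between pools. Time of day, native against introduced PLT5, and cell number against RNA per cell were not separated by the design.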
